A study of Bos taurus with 15 samples.

Results

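The genes examined belong to histone deacetylase complexes, listed by symbol as SAP30L, SAP30, SAP18, SIN3A, SIN3B, HDAC1, HDAC2, HDAC3, RBBP4 and RBBP7. All but HDAC3, whose usual partners are those of the NCoR complex, are subunits of the SIN3 complex. Of these 10 symbols, 9 were found among the 24616 genes of the expression table, and HDAC3 was not analysed here. A filter on low counts left 8441 genes for testing, among them 8 of the 9, with SIN3B too low to be tested. The list was drawn up around SAP30L, which was chosen by its measured level in these same libraries, lower after helium than after nitrogen vitrification. That difference is therefore described below by its values, with no test of it read as evidence.

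RNA was sequenced from bovine (Bos taurus) oocytes taken from ovaries, in 15 libraries that formed 5 groups of 3. Oocytes of every group, the fresh controls included, had spent 22 to 24 h at 38.5 °C in maturation medium and had then been freed of cumulus cells, the somatic cells around the oocyte, with hyaluronidase. Fresh oocytes were not vitrified, and the other 4 groups were vitrified, that is cooled to a glass without ice crystals, in liquid helium or liquid nitrogen, each with 5.6 M or 6.6 M cryoprotective agent. The comparisons address how coolant temperature and cryoprotectant concentration bear on oocyte mRNA. On the oocyte stage the sources differ, with immature in the title of the series and in vitro matured in the labels of each sample. The labels do not say whether libraries of a group came from separate animals or cultures, so p-values measure the spread between libraries, which may be technical.

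Depth was not even across the groups. The 6 helium libraries and nitrogen 6.6 M library 3 held 6346848 to 8569618 counts, and the other 8 libraries, fresh and nitrogen, held 1601519 to 2822837. Coolant and depth therefore overlap except in 1 nitrogen library, and values by depth are given where they bear on a result. Levels are shares of a library, so less of a transcript and more of all others cannot be told apart. Of 15 oocyte markers, 11 were in the table, and none was at 0 in any library. Their summed level was 8380 to 10500 CPM (counts scaled to the library total) in helium libraries and 6150 to 8540 in nitrogen libraries. It was uneven in fresh oocytes, at 5270, 10400 and 6040 CPM in libraries 1 to 3. The part of these levels in the differences below was not tested. The 19 cumulus and granulosa markers in the table summed to 384 to 685 CPM. STAR (140 to 283 CPM), HAS2 (83.5 to 126) and PTGS2 (47.5 to 86.0) were present in every library, as were VCAN, GJA1 and SERPINE2. FSHR and FOXL2 were at 0 in all 15 libraries. The highest sum was in helium 6.6 M library 2, where TIMP1 reached 130 CPM. The 8 blood and immune markers summed to at most 8.11 CPM.

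In the SIN3 complex a large scaffold protein, SIN3A or SIN3B, brings the deacetylases HDAC1 and HDAC2 to chromatin together with the histone chaperones RBBP4 and RBBP7 and the small subunits SAP18 and SAP30. The enzymes remove acetyl groups from histone tails, which as a rule lowers transcription at the genes where DNA-binding factors have placed the complex. SAP30L is the paralog of SAP30 and can take its place. HDAC1, HDAC2, RBBP4 and RBBP7 also serve in the NuRD complex. Grown oocytes are largely silent in transcription, live on stored mRNA, and lose acetyl groups from their histones as meiosis resumes.

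Transcript levels within the complex differed widely. On the FPKM scale, which divides fragment counts by gene length and library total, RBBP7 averaged 2141 ± 261 (SD, n = 15) and ranked 39 in the whole table. RBBP4 followed at 281 ± 30.4 FPKM, rank 430. Together these chaperones made up most of the transcripts of the complex, RBBP7 alone holding 77.1 to 84.3% of the summed FPKM of the 9 genes in each library and RBBP4 9.13 to 13.2%. Next came SIN3A at 49.1 ± 13.8, SAP18 at 38.7 ± 6.90, SAP30L at 36.0 ± 13.4, HDAC1 at 33.2 ± 7.58 and HDAC2 at 30.5 ± 4.35 FPKM, whose neighbours in this order lay within their SDs. SAP30 stood lower at 18.5 ± 7.51 FPKM, and SIN3B was close to the limit of detection at 0.312 ± 0.302 FPKM. Of the 8 tested genes, SAP30 and SAP30L varied most across all libraries, with coefficients of variation of 42.6% and 37.5% on the CPM scale, and HDAC2 varied least, at 11.6%.

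**Figure D1:**
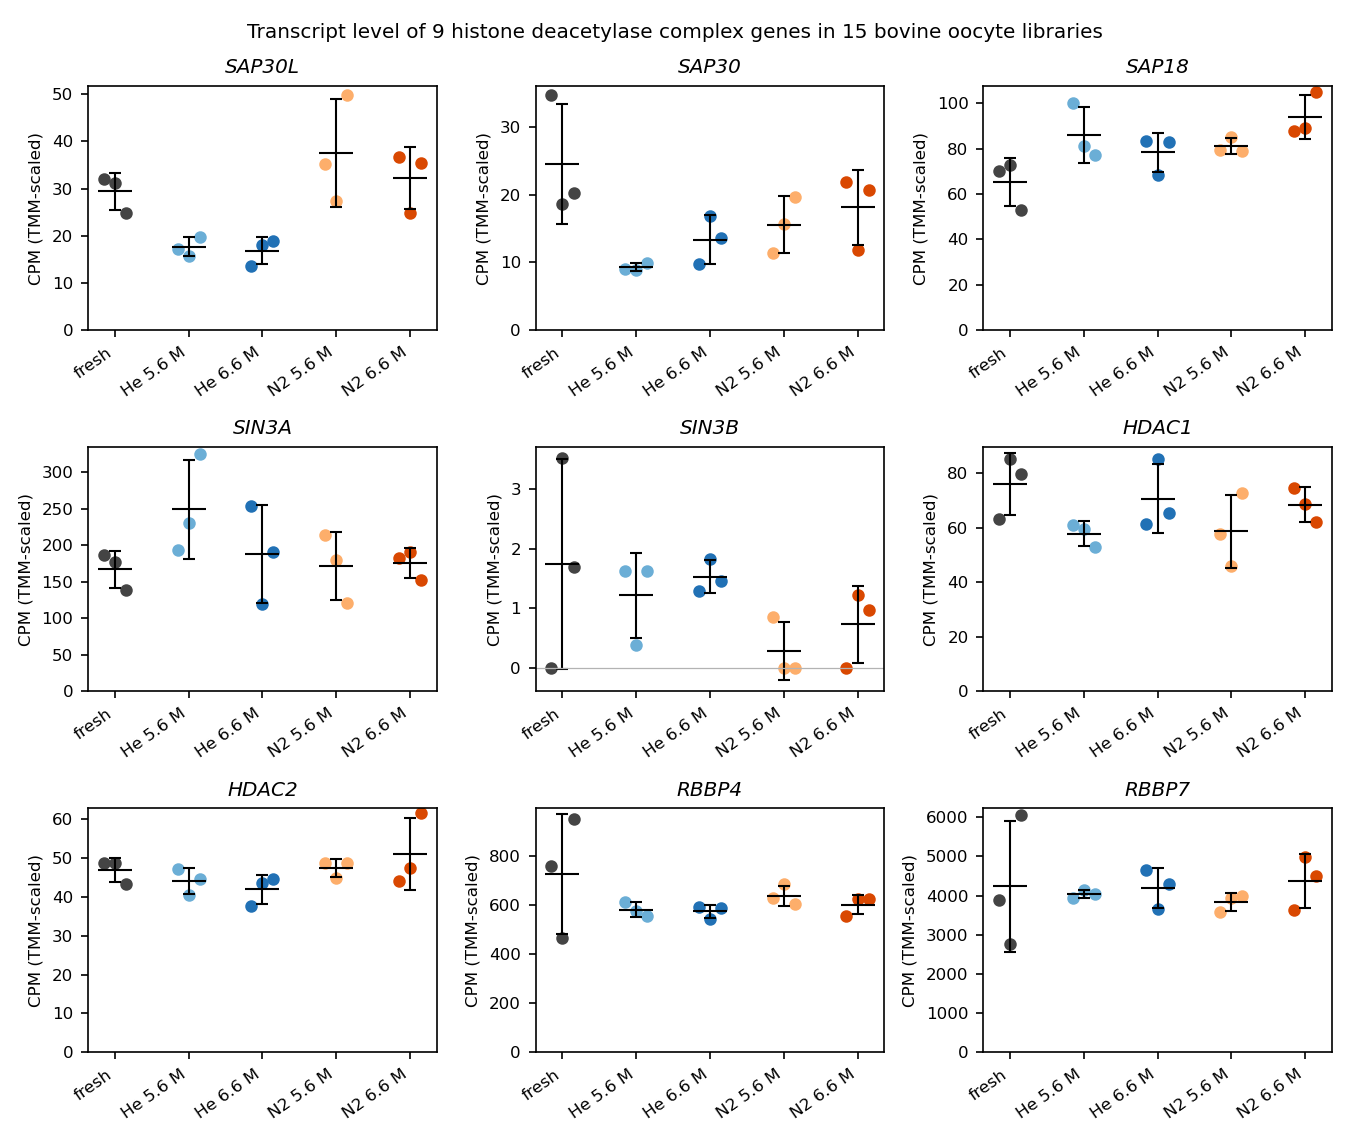
Level of the 9 genes in each of the 15 libraries, as CPM after TMM scaling (trimmed mean of M-values), with a panel and axis for each gene and a column for each group. Points are libraries, horizontal bars are group means and whiskers are SD (n = 3). The 6 helium points of SAP30L lie between 13.6 and 19.8 CPM, below all fresh and nitrogen points.

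SAP30L (ENSBTAG00000004000, chromosome 7, 67737282 to 67745532 on UMD3.1) encodes a zinc finger protein that binds DNA and anchors to the SIN3 scaffold. Its levels, as TMM-scaled CPM (the scaling compares libraries by the trimmed mean of their log ratios), were 17.3, 15.8 and 19.8 in helium 5.6 M and 13.6, 18.1 and 18.9 in helium 6.6 M. In nitrogen 5.6 M the levels were 35.2, 27.4 and 49.9, and in nitrogen 6.6 M they were 36.6, 24.8 and 35.4. All 6 helium libraries lay below all 6 nitrogen libraries. The means were 17.2 ± 2.26 CPM in helium and 34.9 ± 8.80 in nitrogen (SD, n = 6 each), a log2 difference of -1.01 with a standard error (SE) of 0.17. The difference was -1.08 at 5.6 M and -0.94 at 6.6 M. Raw counts behind these values ran from 95 to 159 in helium and from 58 to 254 in nitrogen. Since this contrast led to the choice of SAP30L, its size and error are a description.

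Fresh oocytes held 32.1, 31.2 and 24.9 CPM of SAP30L, inside the range of the nitrogen libraries and above every helium library. Against fresh, the log2 difference of SAP30L was -0.73 (SE 0.25) in helium 5.6 M and -0.79 (SE 0.25) in helium 6.6 M, with edgeR adjusted p of 0.18 and 0.142. These values share the helium libraries with the contrast that chose the gene and are no separate evidence on it. In nitrogen the difference from fresh was 0.35 (SE 0.26, adjusted p = 0.834) at 5.6 M and 0.15 (SE 0.25, adjusted p = 0.938) at 6.6 M in edgeR. No SAP30L difference from fresh passed the test.

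Depth moved with the SAP30L level as well. Among the 7 deep libraries, the 6 helium libraries held 13.6 to 19.8 CPM and the only nitrogen library 35.4 CPM. Among the 8 shallow libraries, nitrogen averaged 34.8 ± 9.84 CPM (n = 5) and fresh 29.4 ± 3.92 (n = 3), with no helium library to set beside them. With the depth class as a term in the edgeR fit, the difference between helium and nitrogen was -1.18, and without the deep nitrogen library it was -0.97. Beyond that 1 library, coolant and depth cannot be told apart.

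**Figure D2:**
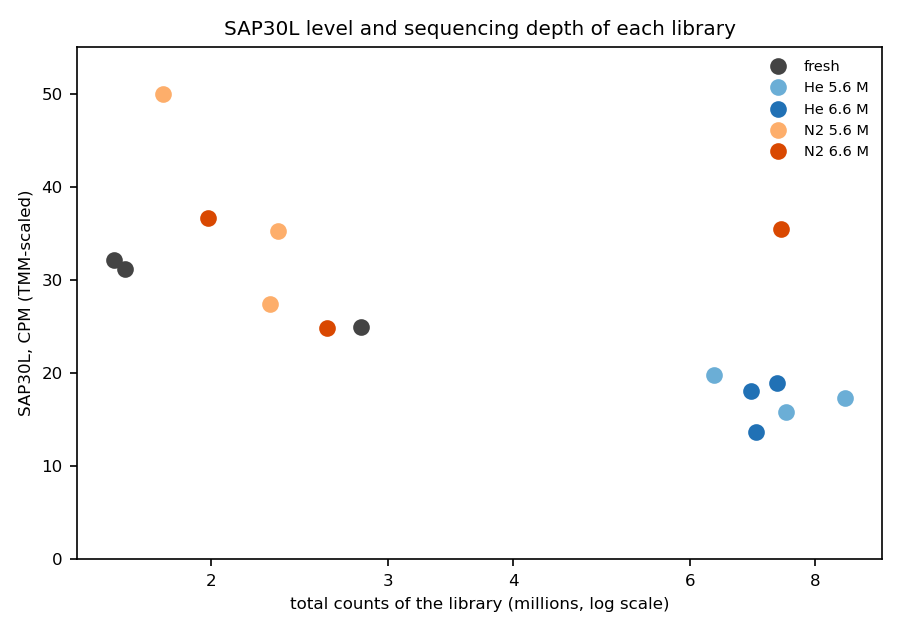
SAP30L level (TMM-scaled CPM) against the total counts of each library, on a log axis, with 1 point a library and colours for the 5 groups. The deep nitrogen 6.6 M library stands at 35.4 CPM among the deep helium libraries, which reach 19.8 CPM at most.

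SAP30 (ENSBTAG00000015578, chromosome 8, 5610648 to 5615594) encodes the bridging subunit that stabilises the SIN3 and HDAC interaction. Its levels were 34.7, 18.6 and 20.2 CPM in fresh oocytes and 9.03, 8.94 and 9.96 in helium 5.6 M. The fresh and helium 5.6 M libraries did not overlap, and helium 5.6 M was the tightest group, at 9.31 ± 0.569 CPM. The log2 difference was -1.38 (SE 0.31), which missed the threshold in edgeR with an adjusted p of 0.0543. The same difference passed in DESeq2 (adjusted p = 0.00232), a tool that called 2.89% of all genes in this contrast. In edgeR it passed without the filter on low counts (adjusted p = 0.00616), where 160 of 16294 genes did. It also passed in edgeR without fresh library 2 (adjusted p = 0.0161), where 431 of 9610 genes did. Without helium 6.6 M library 2 it passed as well (edgeR adjusted p = 0.0481), as 40 of 8535 genes did. Over all alternatives its adjusted p ran from 0.00232 to 0.94, the latter in the fit with the replicate number as a block, and its sign stayed negative in all 23.

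In helium 6.6 M, SAP30 was at 9.71, 16.8 and 13.6 CPM, again below every fresh library, with a log2 difference of -0.85 (SE 0.30, edgeR adjusted p = 0.182). The highest of these 3 values came from library 2, which also had the highest cumulus marker sum, and a link between them was not tested. Without that library the difference was -1.05 (edgeR adjusted p = 0.242). Nitrogen libraries held 11.4, 15.6 and 19.7 CPM at 5.6 M and 21.9, 11.8 and 20.6 at 6.6 M, overlapping the fresh range. SAP30 differed from fresh by -0.65 (SE 0.32) and -0.41 (SE 0.31) there, with edgeR adjusted p of 0.727 and 0.788. Of the 12 vitrified libraries, 9 lay below every fresh library for SAP30, and the difference of all vitrified from fresh was -0.82 (SE 0.24, edgeR adjusted p = 0.132). Between helium and nitrogen SAP30 differed by -0.59 (SE 0.22, edgeR adjusted p = 0.205). The 4 differences from fresh share the same 3 fresh libraries.

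**Figure D3:**
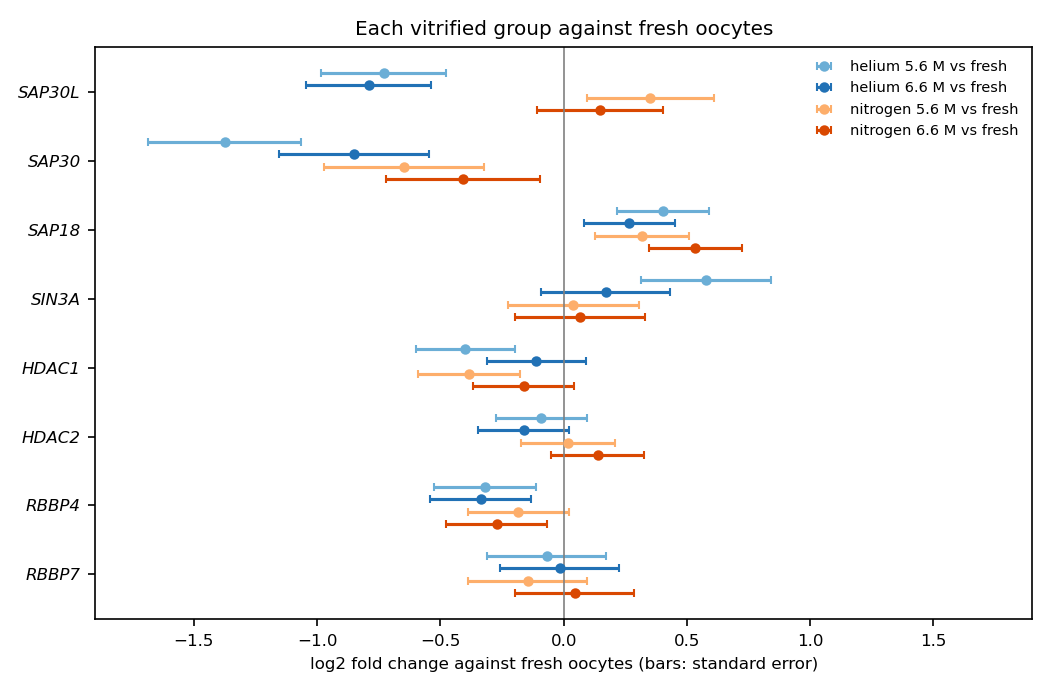
Log2 fold change of the 8 tested genes in each of the 4 vitrified groups against fresh oocytes, from 1 edgeR fit, with bars for the SE. SAP30 lies below 0 and SAP18 above 0 in all 4 groups, and SAP30L lies below 0 in the helium groups only. No point passed the test after adjustment.

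SAP18 (ENSBTAG00000018631, chromosome 12, 35860636 to 35868470) has a ubiquitin-like fold and works both in the SIN3 complex and in the ASAP and PSAP complexes that act on spliced RNA. It ran the other way from SAP30. Fresh libraries held 70.1, 72.9 and 53.1 CPM, and 11 of the 12 vitrified libraries lay above all of them. The exception was helium 6.6 M library 2, at 68.6 CPM. Group means were 86.1 ± 12.4 CPM in helium 5.6 M, 78.4 ± 8.45 in helium 6.6 M, 81.2 ± 3.36 in nitrogen 5.6 M and 94.1 ± 9.76 in nitrogen 6.6 M (SD, n = 3 each). The log2 differences of SAP18 from fresh were 0.40, 0.27, 0.32 and 0.53 in that order, with edgeR adjusted p from 0.337 to 0.802. For all vitrified libraries the difference was 0.38 (SE 0.15, edgeR adjusted p = 0.272). With depth class as a term in edgeR it was 0.23. The group differences were then 0.15 in helium 5.6 M, 0.01 in helium 6.6 M, 0.32 in nitrogen 5.6 M and 0.44 in nitrogen 6.6 M. All fresh libraries were shallow, and the only deep nitrogen library held 105 CPM beside 84.1 ± 4.64 in shallow nitrogen (n = 5). The part of depth in these SAP18 differences was not tested. Helium and nitrogen differed by -0.09 (SE 0.13), less than the spread within either.

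SIN3A (ENSBTAG00000009985, chromosome 21, 33796382 to 33840716) is the scaffold on which the complex is built. Helium 5.6 M libraries held 193, 230 and 324 CPM, all above the fresh values of 186, 177 and 138. The log2 difference of 0.58 (SE 0.26) did not pass in edgeR (adjusted p = 0.331). Helium 6.6 M libraries spread from 119 to 254 CPM, with library 2 the lowest of all 15, and differed from fresh by 0.17 (SE 0.26, edgeR adjusted p = 0.831). Without library 2 that SIN3A difference was 0.41 (edgeR adjusted p = 0.559). Nitrogen means, 171 ± 47.0 CPM at 5.6 M and 175 ± 20.4 at 6.6 M, lay close to the fresh mean of 167 ± 25.5. Helium and nitrogen differed by 0.32 (SE 0.18, edgeR adjusted p = 0.399).

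SIN3B (ENSBTAG00000009330, chromosome 7, 6104506 to 6147010), the paralogous scaffold, was barely detected. Counts ran from 0 to 15, a total of 85 over all libraries. The 4 libraries at 0 were fresh library 1, nitrogen 5.6 M libraries 2 and 3 and nitrogen 6.6 M library 1, all of them shallow. A count of 0 allows up to 1.42 to 2.00 CPM in those libraries, a limit inside the range of levels seen elsewhere, so groups were not compared for SIN3B. Every helium library held at least 3 counts. In the 11 libraries with a SIN3B count, SIN3A was 47.6 to 561 times higher in FPKM.

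HDAC1 (ENSBTAG00000012698, chromosome 2, 122055992 to 122087843) and HDAC2 (ENSBTAG00000011849, chromosome 9, 36918529 to 36952928) are the closely related catalytic subunits. Fresh libraries held 63.4, 85.4 and 79.6 CPM of HDAC1, and helium 5.6 M libraries held 61.1, 59.7 and 52.8, all below fresh. That log2 difference was -0.40 (SE 0.20, edgeR adjusted p = 0.384). The other groups overlapped fresh, at 70.7 ± 12.6 CPM in helium 6.6 M, 58.7 ± 13.4 in nitrogen 5.6 M and 68.5 ± 6.25 in nitrogen 6.6 M. Helium 6.6 M library 2 held 85.1 CPM of HDAC1, the highest vitrified value, and without it the difference of that group from fresh went from -0.11 to -0.27. Between helium and nitrogen HDAC1 differed by 0.02 (SE 0.14), a value whose sign changed in 8 of 23 alternatives. The HDAC1 span overlaps that of MARCKSL1 by 1020 bases. Use of strand in counting is not given in the sources used here, so reads of both genes could be mixed, and MARCKSL1 averaged 1.33 FPKM.

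HDAC2 was the steadiest gene of the complex. Group means lay between 41.9 ± 3.79 CPM in helium 6.6 M and 51.1 ± 9.26 in nitrogen 6.6 M, and the fresh mean was 47.0 ± 3.09. The nitrogen 6.6 M mean was set by library 3, the deep nitrogen library, at 61.7 CPM beside 44.2 and 47.5. No vitrified group differed from fresh by more than 0.16 on the log2 scale in HDAC2, with an SE of 0.19 in each. Helium and nitrogen differed by -0.20 (SE 0.13, edgeR adjusted p = 0.442), and by -0.54 with depth class as a term (adjusted p = 0.301), a fit in which that library is the only deep nitrogen sample.

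RBBP4 (ENSBTAG00000005904, chromosome 2, 121800923 to 121817395) and RBBP7 (ENSBTAG00000002820, chromosome X, 133866652 to 133939151) are WD-repeat proteins that hold histones for several chromatin complexes. The RBBP4 and HDAC1 loci lie on the same chromosome, 238596 bases apart with 6 genes between them. RBBP4 was at 759, 464 and 950 CPM in the fresh libraries and far more even in the vitrified libraries, at 598 ± 39.1 CPM (SD, n = 12). All 12 vitrified values lay inside the fresh range. The log2 difference of all vitrified from fresh was -0.28 (SE 0.16, edgeR adjusted p = 0.47). Single fresh libraries decided this value. Without fresh library 2 the difference was -0.53 (edgeR adjusted p = 0.0401), in a fit that called 243 of 9610 genes, beside 43 of 8441 with all libraries. Helium 6.6 M then differed from fresh by -0.60 (edgeR adjusted p = 0.0358), where 598 of 9610 genes were called, beside 53 of 8441. Without fresh library 3, the highest, the RBBP4 difference was -0.03 (adjusted p = 0.97).

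RBBP7 showed the same uneven fresh group, at 3890, 2770 and 6060 CPM, against 4110 ± 433 CPM over the vitrified libraries. Its difference from fresh was -0.05 (SE 0.19, edgeR adjusted p = 0.95), and it was -0.29 without fresh library 2 and 0.31 without fresh library 3. In unscaled FPKM the fresh libraries were closer together, at 1910, 1760 and 2670 for RBBP7 and 323, 256 and 364 for RBBP4. The TMM factors of fresh libraries 1 to 3 were 0.938, 1.22 and 0.843, and the part of scaling in the fresh spread was not tested. Helium and nitrogen did not separate in either gene, with log2 differences of -0.10 (SE 0.14) for RBBP4 and 0.01 (SE 0.17) for RBBP7.

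Counted over the complex, none of the 8 tested genes passed an adjusted p of 0.05 against fresh in edgeR in any vitrified group. Over all tested genes 0.474% passed in helium 5.6 M, 0.628% in helium 6.6 M, 0.0118% in nitrogen 5.6 M, 0.0474% in nitrogen 6.6 M and 0.509% for all vitrified libraries together. At an unadjusted p of 0.05, 4 of 8 genes passed in helium 5.6 M (SAP30L, SAP30, SAP18 and SIN3A) against 14.1% of all genes. The same count was 2 in helium 6.6 M against 15.4%, 0 in nitrogen 5.6 M against 6.74%, 1 in nitrogen 6.6 M against 8.23% and 2 for all vitrified libraries against 13.6%. DESeq2 called 1 gene, SAP30, in helium 5.6 M, where it called 2.89% of all genes. It called 0 of 8 in helium 6.6 M, nitrogen 5.6 M, nitrogen 6.6 M and all vitrified libraries, against 3.31%, 0.379%, 0.817% and 2.26% of all. Over these 5 comparisons limma called 0 of 8 in each, against 0.486%, 0.533%, 0.0829%, 0.142% and 0.865% of all.

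In helium 5.6 M, 5 of the 8 genes had libraries that did not overlap those of fresh, where 18.1% of all tested genes did so. SAP18 and SIN3A were above, as 9.36% of tested genes were, and SAP30L, SAP30 and HDAC1 were below, as 8.79% were. Helium 6.6 M had 2 such genes against 16.3%, nitrogen 5.6 M had 1 against 9.26%, nitrogen 6.6 M had 1 against 9.31%, and the pooled vitrified libraries had 0 against 2.03%. The genes were listed with results on these libraries known, so these counts describe the list only. The median log2 difference of the 8 genes from fresh was -0.20 in helium 5.6 M, -0.14 in helium 6.6 M, -0.06 in nitrogen 5.6 M and 0.06 in nitrogen 6.6 M. The medians of all tested genes in the same contrasts lay between -0.05 and 0.00.

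Between the coolants, the 8 genes, with SAP30L among them by choice, had a median difference of -0.10, helium minus nitrogen, beside 0.03 for all tested genes. Leaving SAP30L aside, 0 of the other 7 genes passed in edgeR, DESeq2 or limma, which called 0.663% (0.592% lower in helium), 3.19% and 0.355% of all tested genes. Of these 7, SAP30 alone passed an unadjusted p of 0.05 in edgeR, a level that 16% of all genes reached. Only SAP30L separated the 6 helium from the 6 nitrogen libraries, as 3.36% of tested genes did, 2.63% with helium lower. This contrast chose SAP30L, so its separation is a description. Within 5.6 M the libraries of SAP30L and SAP30 did not overlap between coolants, 2 of 8 genes beside 21.9% of all. Within 6.6 M the same held for SAP30L and SAP18 beside 14.7%. SAP30L is in both counts by that choice. None of the 7 genes other than SAP30L passed within either concentration. At 5.6 M edgeR called 0% of all tested genes, DESeq2 0.569% and limma 0.0355%, and at 6.6 M they called 0%, 0.0948% and 0%. At an unadjusted p of 0.05 in edgeR, SAP30 passed at 5.6 M, beside 9.51% of all genes, and none of the 7 passed at 6.6 M, beside 8.03%.

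Cryoprotectant concentration left the complex without any call. Between 6.6 M and 5.6 M, 0 of 8 genes passed in edgeR, DESeq2 or limma, and 0 passed at an unadjusted p of 0.05, beside 0% of all tested genes in each tool and 2.24% at an unadjusted p in edgeR. No gene of the 8 separated the 6 libraries of each concentration, as 0.0711% of all did. The largest differences were 0.38 (SE 0.22) for SAP30, 0.26 (SE 0.14) for HDAC1 and -0.19 (SE 0.18) for SIN3A. Within helium, HDAC1 libraries at 6.6 M all lay above those at 5.6 M, 1 of 8 genes where 9.52% of all did so. Within nitrogen SAP18 was the only such gene, where 6.05% of all did so. Neither passed in edgeR, where 0% of all tested genes did and where 2.00% in helium and 1.97% in nitrogen reached an unadjusted p of 0.05, none of them in the complex. The interaction of coolant and concentration gave 0 calls of 8 by edgeR, DESeq2 and limma, 0 at an unadjusted p of 0.05, beside 0% of all genes in each tool and 2.10% at an unadjusted p, with values from -0.43 (SE 0.37) for SIN3A to 0.29 (SE 0.43) for SAP30.

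Since paralogs can replace each other in the complex, their FPKM ratios were followed in each library. SAP30L exceeded SAP30 in all 15 libraries, by 1.09 to 3.62 times with a median of 2.02. The ratio averaged 1.5 ± 0.442 in fresh, 2.23 ± 0.133 in helium 5.6 M, 1.52 ± 0.217 in helium 6.6 M, 2.89 ± 0.779 in nitrogen 5.6 M and 2.16 ± 0.281 in nitrogen 6.6 M (SD, n = 3 each). The order of these means was not that of the SAP30L level, since helium 5.6 M, low in both genes, had the second highest ratio. HDAC1 and HDAC2 were near balance, the ratio running from 0.763 to 1.48 with a median of 1.11 and lying above 1 in 9 libraries. RBBP7 exceeded RBBP4 by 5.89 to 9.23 times, with a median of 7.58, and the lowest group mean was that of fresh oocytes, 6.69 ± 0.734. How reads that match both genes of a pair were counted is not given in the sources used here, and these ratios were not tested.

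**Figure D4:**
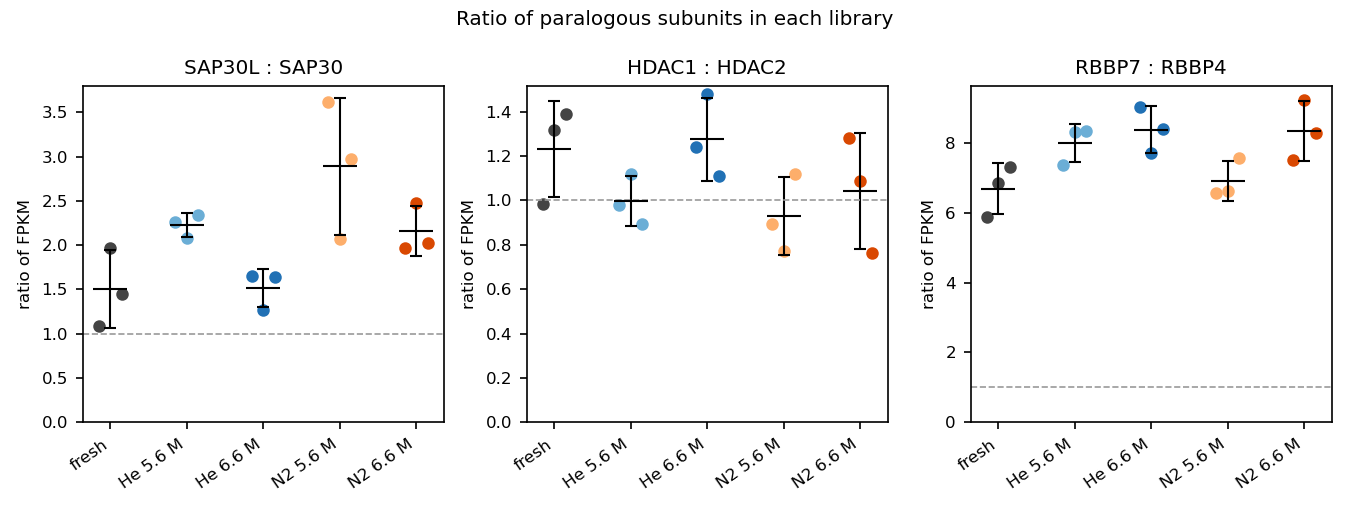
Ratio of FPKM between paralogous subunits in each library, for SAP30L over SAP30, HDAC1 over HDAC2 and RBBP7 over RBBP4, by group. Points are libraries, bars are means and SD (n = 3), and the dashed line marks a ratio of 1. All points of SAP30L over SAP30 and of RBBP7 over RBBP4 lie above 1, whereas HDAC1 over HDAC2 lies on both sides.

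The wider deacetylase machinery was followed in 10 lists of 99 genes, of which 93 were in the table and 68 were tested. Against fresh, 1 of the 68 passed in edgeR in helium 5.6 M, where 0.474% of all tested genes did (0.284% lower), and 0 passed in the other comparisons with fresh or between coolants. At an unadjusted p under 0.05 in edgeR, 8.82% of the 68 passed in helium 5.6 M and 13.2% in helium 6.6 M, where 14.1% and 15.4% of all genes did. The share was 8.82% in nitrogen 5.6 M, 4.41% in nitrogen 6.6 M, 10.3% for all vitrified libraries and 10.3% between coolants, beside 6.74%, 8.23%, 13.6% and 16% of all genes. DESeq2 called 3 of 68 in each helium group, 3 for all vitrified libraries and 1 between coolants, where it called 2.89%, 3.31%, 2.26% and 3.19% of all genes, and limma called 0 in these comparisons. The gene that passed in edgeR was YY1, a zinc finger factor that can recruit deacetylases to DNA. YY1 fell from 50.4 ± 5.55 CPM in fresh to 28.0 ± 0.99 in helium 5.6 M, a log2 change of -0.84 (SE 0.18, edgeR adjusted p = 0.0461). It was at 29.9 ± 2.10 CPM in helium 6.6 M, 40.6 ± 2.34 in nitrogen 5.6 M and 41.3 ± 5.97 in nitrogen 6.6 M. The YY1 call held in 2 of 15 fits that left out a library, with edgeR adjusted p from 0.023 to 0.229. It held in 2 of 8 other alternatives, with the lowest adjusted p, 0.000987, in DESeq2. The sign was negative in all.

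Among other SIN3 subunits, 12 of 14 were in the table and 10 tested, and ARID4A (106 ± 12.4 FPKM), SUDS3 (85.9 ± 19.5) and OGT (17.4 ± 2.32) were the most abundant. Their median difference between helium and nitrogen was -0.16, with 7 of 10 below 0 and none past the test. In the NuRD complex, which remodels nucleosomes as well as deacetylating them, CDK2AP1 (107 ± 30.7 FPKM), MTA3 (49.3 ± 7.22) and the remodelling enzyme CHD4 (11.5 ± 2.50) led, and 6 of 10 genes in the table were tested with a median of 0.16. In CoREST, which pairs the deacetylases with the histone demethylase KDM1A, KDM1A itself stood at 47.7 ± 7.29 FPKM and GSE1 at 4.59 ± 1.95, and the 5 tested genes had a median of 0.10. NCOR1 (80.9 ± 14.2 FPKM), TBL1XR1 (56.5 ± 10.7) and GPS2 (17.5 ± 3.58) of the NCoR complex, the usual partners of HDAC3, had a median of -0.01. MiDAC genes, tested for all 4 listed, were low, DNTTIP1 leading at 5.99 ± 2.57 FPKM, and had a median of 0.16.

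Of the 15 other deacetylases, all in the table and 7 tested, the mitochondrial SIRT3 (32.6 ± 8.05 FPKM), the nuclear SIRT1 (23.4 ± 5.09) and HDAC8 (20.3 ± 3.20) were the most abundant. Their median difference between helium and nitrogen was 0.22, with 6 of 7 above 0. SIRT1 was the gene below, at -0.30 (SE 0.15, edgeR adjusted p = 0.319). Against fresh, SIRT1 differed by -0.83 in helium 5.6 M and -0.69 in helium 6.6 M (edgeR adjusted p = 0.0816 and 0.117). Opposing enzymes, the histone acetyltransferases and their adaptors, were led by TADA2A (317 ± 32.5 FPKM), HAT1 (68.9 ± 14.2) and KAT6B (33.6 ± 6.58), with 14 of 16 tested and a median of 0.11. Genes of other complexes that contain RBBP4 or RBBP7 were led by LIN37 (47.4 ± 9.65 FPKM), CHAF1A (24.8 ± 9.92) and EZH2 (22.8 ± 4.19), all 10 tested with a median of -0.01. RNPS1 (125 ± 22.6 FPKM), PNN (88.7 ± 20.4) and ACIN1 (7.31 ± 1.92), the partners of SAP18 on RNA, had a median of 0.07. The DNA-binding recruiters, TGIF1 (170 ± 38.1 FPKM) and MXI1 (43.1 ± 6.80) ahead of YY1 (32.0 ± 7.64), had a median of -0.17 over 6 tested genes, with 4 of 6 below 0.

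**Figure D5:**
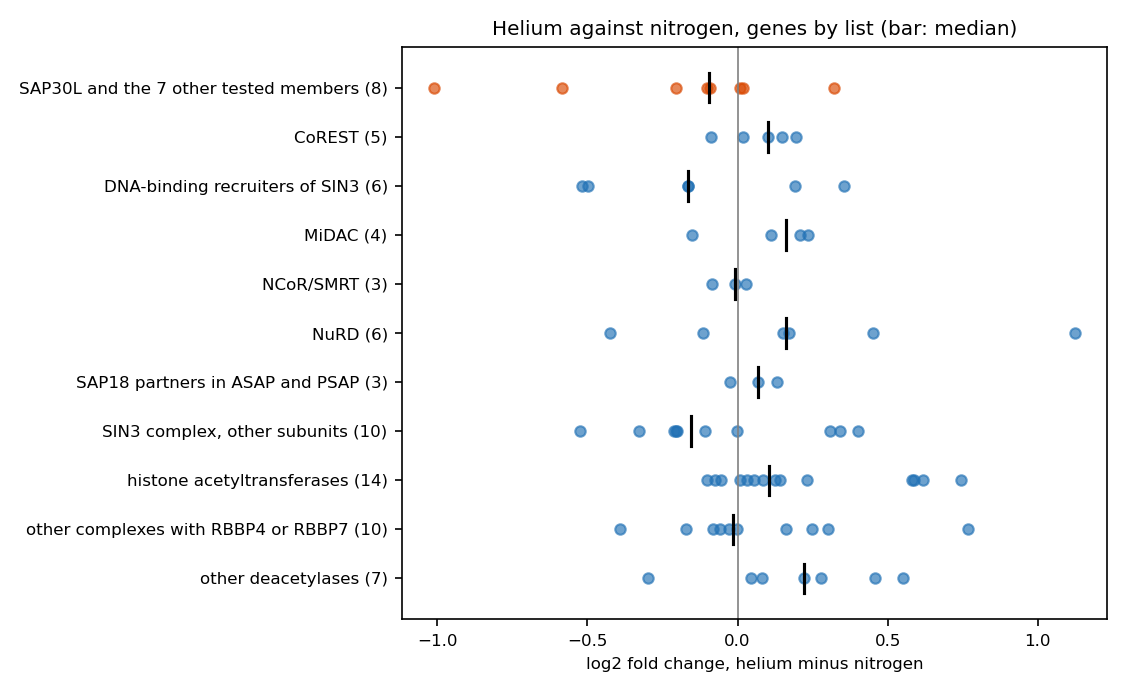
Log2 difference between helium and nitrogen, helium minus nitrogen, for the 8 tested genes of the list (top row, orange) and for the tested genes of the 10 related lists, 1 point a gene, with the number of genes in parentheses and a bar at each median. SAP30L, which was chosen by this contrast, is the lowest point of the plot at -1.01, and no list median is farther from 0 than 0.22.

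The genes most like SAP30L over the 15 libraries were sought among 4844 tested genes with a symbol and a mean of at least 5 FPKM, by the root mean square difference of log2 CPM after centring each gene on its own mean. The closest were ELOVL5 at 0.22, GKAP1 at 0.22, RPL37 at 0.23, C9orf40 at 0.24 and RIIAD1 at 0.25, where the median of all candidates was 0.60. Since SAP30L was chosen as lower in helium, a search for genes like it favours genes lower there, and their levels only describe the search. Each was lower in helium, for example 87.2 CPM against 138 in nitrogen for ELOVL5, a fatty acid elongase. For RPL37, a ribosomal protein, the levels were 13.0 against 28.9. Within the complex the nearest to SAP30L were HDAC2 at 0.42 and SAP30 at 0.43, ranks 308 and 311 of the candidates. Spread was not scaled in this measure, so a steady gene such as HDAC2 can lie near without following SAP30L. RBBP7 at 0.62 and SIN3A at 0.75, rank 4236, lay beyond the candidates' median.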

How the data were processed

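The authors deposited raw counts per gene and library, unscaled whole numbers per the file headers, together with FPKM values. In 180473 of 180473 values above 0 the deposited FPKM equalled count over gene length and library total within 0.1%. StringTie 1.3.0, HISAT2 2.0.4 and build UMD3.1 are named in the submitters' processing notes. The handling of multiply mapped reads and of strand is not given in the sources used here. The members and gene lists were chosen with earlier results of these data known.

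Groups came from the labels, where helium 5.6 M libraries are numbered 3, 4 and 5. In R 4.3.3, edgeR 4.0.16 fitted all 15 libraries and 5 group means (filterByExpr, 8441 genes, TMM, robust quasi-likelihood test), with Benjamini-Hochberg adjustment over all genes, a threshold of 0.05 and 12 contrasts. SDs are between libraries. Levels between genes are FPKM, and differences between groups rest on CPM. Alternatives were DESeq2 1.42.0, limma 3.58.1 on log2(FPKM + 1) of the deposited FPKM, RLE scaling, no filter, a filter of 1 CPM in 3 libraries, a replicate block, depth class (above or below 4000000 counts) as a term, only the groups compared, and leaving out each library. Tests were checked on simulated counts. No library repeated another of its group, since their counts differed beyond sampling noise (chi-square over degrees of freedom 5.56 to 30.9).

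All listed genes in the table are described. Of the related lists, genes past the threshold and up to 3 with the highest mean FPKM are named, except 1 that is not reported here. Among pairs of groups that share all 3 numbers, same-numbered libraries had every r above 0.1 for helium 6.6 M with fresh (0.147, 0.306 and 0.227) and in no other pair. The block changed no call of a listed gene there. Helium 5.6 M shares only the number 3 with the other groups. With the block, its libraries 4 and 5 are therefore fitted by terms of their own, and its differences rest on library 3.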

Additional observations from a re-analysis of the deposited data

Results flagged for a closer look

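The difference of SAP30L from fresh oocytes was not the same for both coolants. SAP30L was lower than fresh in all 6 helium libraries, with log2 differences of -0.73 at 5.6 M and -0.79 at 6.6 M, and not lower in nitrogen, at 0.35 and 0.15. The helium minus nitrogen difference of these changes was -1.01 (SE 0.17). Fresh libraries cancel from it, so it is the same contrast that led to the choice of SAP30L and adds nothing to it. Of the 7 deep libraries 6 are helium libraries, and beyond the 1 deep nitrogen library the part of depth in this difference was not tested. Groups of 3 libraries were not screened for single outlying libraries.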

How the results depend on the processing

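No value changed sign together with a call. Of 2231 values of single genes under the alternatives, 2170 kept their direction and side of the threshold or moved by less than 1 SD, 22 lost the threshold, 8 gained it and 31 moved by more. Of the 8 listed genes, the number past the threshold in helium against nitrogen went from 1 to 0 with depth class as a term and with limma. The gene counted there is SAP30L, in the contrast that chose it, so the count is a description. In helium 5.6 M against fresh the number went from 0 to 1, by SAP30, with DESeq2 and with no filter on low counts. It did the same in helium against nitrogen at 5.6 M, there by SAP30L and again a description. Leaving out 1 library at a time, the number ran from 0 to 1 in helium 5.6 M, in helium 6.6 M and in all vitrified against fresh.

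Of the 68 related genes, 1 passed in helium 5.6 M against fresh, and 3 with DESeq2. The number was 0 with the CPM filter, depth class, limma or only the groups compared, and ran from 0 to 3 leaving out 1 library. Over all genes the same contrast had 40 calls and 244 with DESeq2. In helium 6.6 M against fresh the number 0 became 3 with DESeq2 and ran from 0 to 2 leaving out 1 library. In all vitrified against fresh it became 3 with DESeq2 and ran from 0 to 1. In helium against nitrogen it became 1 with DESeq2, 2 with no filter and 2 with only the groups compared, and ran from 0 to 2.

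With the replicate block, SAP30L differed by -1.08 between helium and nitrogen, and the same numbers do not pair these libraries by any label. In that fit helium 5.6 M rests on its library 3 alone, so no calls in contrasts with helium 5.6 M are read from it. In the other contrasts the block changed no call of a listed gene. Over all genes, helium against nitrogen had 56 calls, 269 with DESeq2, 344 with no filter, 308 with only the groups compared, 13 with depth class and 30 with limma. Without fresh library 2 it had 234, and helium 5.6 M against fresh went from 40 to 431. In helium against nitrogen the all-gene median shifted from 0.03 to 0.18 with no filter and 0.12 with limma. The cause of these shifts was not tested. Depth limits SIN3B, since a count of 0 allows up to 2.00 CPM in the shallowest library.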
